A study of Homo sapiens with 3 samples.

Results

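The genes described here are 50 human genes of the G2 phase and of mitosis, measured in A375 cells, an established line of adherent human melanoma cells. The list holds cyclins, mitotic kinases, checkpoint, kinetochore, kinesin and cytokinesis genes, and every probe whose platform gene symbol was one of these names was taken, 78 probes in all, out of 20046 genes named by a probe. Total RNA was hybridised to 3 Illumina arrays of 47323 probes, 1 for each state of the culture. Adherent cells were the starting state, suspended cells had been transferred from adherent culture to sterile plastic dishes in the same medium, and reattached cells were suspended cells placed on a culture dish with fresh medium for 1 day. The labels name no genetic change in any state, and all 3 grew in DMEM with 10% serum and antibiotics. The labels do not say for what time cells were in suspension or from how many dishes each RNA was taken. With 1 array a state, no difference below has a replicate check, no p-value is given, and higher and lower describe single arrays. Levels are normalized log2 signals, which are not compared between genes, and 3 levels in a row are those of adherent, suspended and reattached cells. Single values with a sign are log2 differences between arrays, suspended minus adherent unless another pair is named.

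Entry into mitosis is driven by cyclin-dependent kinase 1 bound to A- and B-type cyclins, with Polo and Aurora kinases acting on centrosomes, spindle and centromeres. The spindle checkpoint then holds the anaphase-promoting complex in check until kinetochores have attached to microtubules, after which cyclin B and securin are degraded and the cell divides. Most of these genes are transcribed periodically, low in G1 and high in G2 and M. They share a promoter element, the cell cycle genes homology region, often beside CCAAT boxes bound by NF-Y. MuvB binds the region, as part of the DREAM complex or together with B-MYB or FOXM1. RNA levels of these genes in a whole culture therefore follow the share of cells in G2 and M as well as transcription per cell. In bulk RNA, fewer cells of a kind and less RNA per cell cannot be told apart.

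The arrays were alike in quality. Probes called detected, at a detection p-value under 0.01, made up 37.5%, 36.9% and 35.6% of probes in adherent, suspended and reattached cells, and their median signal was 4.58 to 4.91 times that of undetected probes. All 50 genes were detected on all 3 arrays, with signals of the probes used from 106.4 for MKI67 to 6870.2 and a median of 1207.3. Of the 78 probes, 76 were detected on at least 1 array, and the remaining 2, one each of INCENP and KIF18A, on none. The label melanoma was checked against 12 melanoma and neural crest markers. Of these, SOX10, MITF, S100A1, CSPG4, MCAM and MIA were detected on each array, PMEL, MLANA, TYR, TYRP1 and S100B on none, and DCT had no probe named here, so the pigment genes of melanocytes were absent from the detected set. The summed signal of the melanoma list came to 6016, 9160 and 6703 in adherent, suspended and reattached cells. These and the sums below are of scanner signals, with background left in and not normalized between arrays. The median signal of detected probes was 233.3, 261.5 and 247.2 in the same order. Some markers of other cell types were detected as well, for fibroblasts at the same share as for melanoma. On the 3 arrays these were 3 of 6 fibroblast genes (summed signal 417 to 443) and 2, 1 and 2 of 6 keratinocyte and epithelial genes (1952 to 2301). The others were 2 of 5 leukocyte genes (234 to 238) and 1, 0 and 0 of 4 endothelial genes (54.5 to 69.2). DCN, LUM, PDGFRB, KRT10, CD14 and LYZ were detected on each array, KRT14 in adherent and reattached cells and PECAM1 in adherent cells alone. KRT10, at a log2 level of 11.05 in adherent cells, was by far the highest of these. COL1A1, PTPRC, CDH1 and EPCAM were not detected on any array. The detection of these markers was not tested as a sign of other cells. The part of the shift in the melanoma list in the results below was not tested.

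The promoters of these genes were examined first for what they share. The main motifs searched are those named above as known for such genes. High shares of them were therefore foreseen, and they are given as a description, not as an independent result. RefSeq promoters (GRCh38.p14, 250 bases before to 50 after the start) were found for 42 of the 50 genes, as 53 promoters. The homology region in the form TTTGAA, searched on both strands, was in 35 of the 53 (66.0%), from 32 genes, against 15.2% of all 35116 promoters in the table and 10.9% of the 13108 promoters of genes detected here. A second form of it, TTCGAA, which reads the same on both strands, was in 6 (11.3%, against 1.45% and 1.69%). No further form of the region was searched, so a promoter without these letters may still hold one. The NF-Y box CCAAT was in 41 promoters (77.4%) of 36 genes, against 34.6% and 35.7%. Both TTTGAA and CCAAT were in 30 promoters (56.6%), against 5.90% and 4.43%. GGCGGGAA, one form of the E2F site, was in 4 (7.55%, against 3.16% and 4.84%). A match is a run of letters and was not tested as a bound site.

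The places of matches before the start were then described. The nearest TTTGAA before the start began at a median of -29 bases in the 28 promoters that had one there, and the nearest CCAAT at a median of -55 bases in 41. In a window chosen after the positions were seen, the 50 bases before the start, TTTGAA began in 20 of the 53 promoters (37.7%), against 2.56% of all promoters and 1.80% of those of detected genes. At least 2 CCAAT matches stood in 24 promoters, up to 5 in one. Taking the nearest of several draws the median toward the start. The place of CCAAT over all promoters was not computed, so -55 has no background beside it. In 2 places matches of different motifs overlapped.

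**Figure D1:**
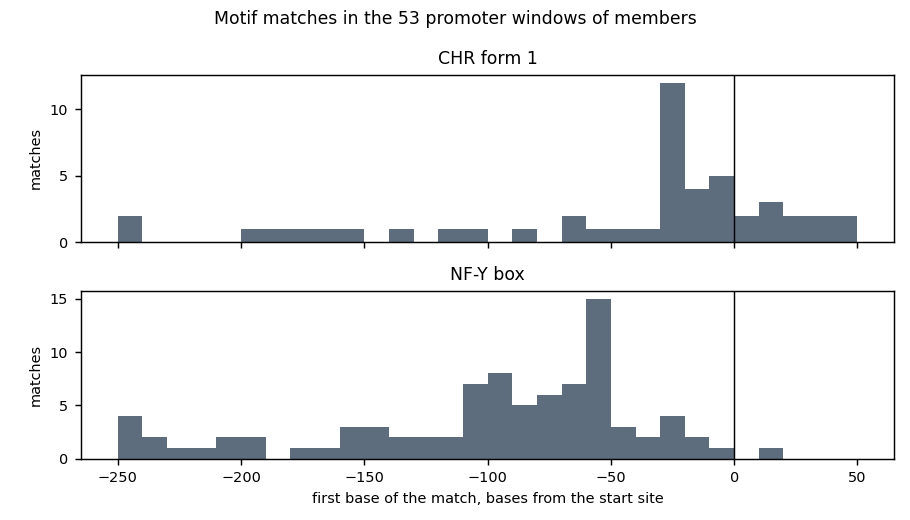
Position of the first base of each match relative to the annotated start site (x axis, bases) in the 53 promoters, counted in bins of 10 bases (y axis, matches), above for TTTGAA (CHR form 1) and below for CCAAT (NF-Y box). Matches of the first pile up about -29 bases and those of the second about -55 bases.

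Bases -130 to -1 of 5 promoters are printed 5′ to 3′, with TTTGAA and CCAAT in capitals, to show how the arrangement varies between genes. CCNB2 has both motifs near the median positions. PLK1 has TTTGAA there but its CCAAT further upstream, and CCNB1 has CCAAT there but no TTTGAA. CCNF has both motifs further upstream, and KIF2C has neither. CCNF, PLK1, CCNB1 and KIF2C were among the genes lower in suspended cells below, and CCNB2, a second B-type cyclin, differed little. All are on the plus strand, CCNF at chr16:2429317-2429446, CCNB1 at chr5:69167020-69167149, PLK1 at chr16:23678759-23678888, KIF2C at chr1:44739707-44739836 and CCNB2 at chr15:59105016-59105145.
CCNF: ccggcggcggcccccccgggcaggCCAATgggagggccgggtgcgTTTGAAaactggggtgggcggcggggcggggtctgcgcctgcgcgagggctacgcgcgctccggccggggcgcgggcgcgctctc
CCNB1: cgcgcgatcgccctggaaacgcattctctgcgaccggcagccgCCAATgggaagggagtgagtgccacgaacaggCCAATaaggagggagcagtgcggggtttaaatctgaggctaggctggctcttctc
PLK1: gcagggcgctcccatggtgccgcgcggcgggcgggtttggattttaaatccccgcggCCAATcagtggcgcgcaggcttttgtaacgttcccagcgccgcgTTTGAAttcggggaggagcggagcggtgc
KIF2C: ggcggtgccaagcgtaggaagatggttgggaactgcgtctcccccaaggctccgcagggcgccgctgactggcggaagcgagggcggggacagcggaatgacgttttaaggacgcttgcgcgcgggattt
CCNB2: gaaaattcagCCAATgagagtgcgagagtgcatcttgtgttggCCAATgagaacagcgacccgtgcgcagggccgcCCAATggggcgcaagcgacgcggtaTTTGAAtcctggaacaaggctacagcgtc
PLK1 had 1 CCAAT at -73 and TTTGAA at -29. CCNB2 had TTTGAA at the same -29 below CCAAT at -120, -87 and -54. CCNB1 had CCAAT at -87 and -55 and no TTTGAA in these letters. CCNF had CCAAT at -106 and TTTGAA at -85, and KIF2C had none of the searched motifs here.

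Differences between states were then set beside the motifs, as a description. Among genes with a promoter in the table, the 32 with TTTGAA had a median log2 difference, suspended minus adherent, of -0.06 with 20 below 0, and the 10 without it a median of -0.11 with 7 below 0. For CCAAT the medians were -0.09 in the 36 genes with it, 25 of them below 0, and 0.03 in the 6 without it. Of these 6, 2 were below 0. The share below 0 over all genes compared was 49.9%. From suspended to reattached cells, medians were 0.08 with and 0.10 without TTTGAA, and 0.09 both with and without CCAAT.

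Suspended cells had slightly lower RNA of most of these genes than adherent cells, and none of the 50 differed by 2-fold. The lowest relative to adherent cells were NDC80, a kinetochore protein that binds microtubules, CCNF, a cyclin that serves as a ubiquitin ligase subunit, PLK1, the Polo kinase of mitotic entry and spindle assembly, and AURKB, the kinase of the chromosomal passenger complex, at 1.22- to 1.35-fold lower. Of 50 genes, 35 (70.0%) were below 0, against 49.9% of the 10991 genes compared, and the median log2 difference was -0.09, against 0.00. At 1.2-fold or more (a log2 difference of 0.263), 7 genes (14.0%) were lower, a share close to the 13.0% of all genes, while 0 were higher, against 14.8%. No gene reached 2-fold in either direction, against 1.16% of all genes. The shift of the group was thus one of sign and of a missing upper tail, with no excess of lower genes at this threshold. Among the 8388 genes in the same range of levels as the 50, the shares were 50.7% below 0, 11.6% lower, 13.0% higher and 1.1% at 2-fold. The lower end of that range, a mean level of 6.22, was set by MKI67 alone. The next lowest gene, SPC25, had levels of 7.37 to 7.62. The range is thus wide and does not match the levels of most of the 50.

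The spread of the 50 genes was narrow. Their log2 differences ran from -0.43 to 0.25 with an SD over genes of 0.161, against 0.303 for all genes. The SD of all genes, here and below, includes dimmer genes and was not taken within a range of levels. The middle 50% of the group lay between -0.18 and 0.01 and that of all genes between -0.15 and 0.16, so the upper edge differed more than the lower. Nearest the 1.2-fold line were AURKA at -0.27 and KIF2C at -0.27 on one side and FOXM1 at -0.26 and CDCA8 at -0.25 on the other, so a small change of the line moves the count.

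**Figure D2:**
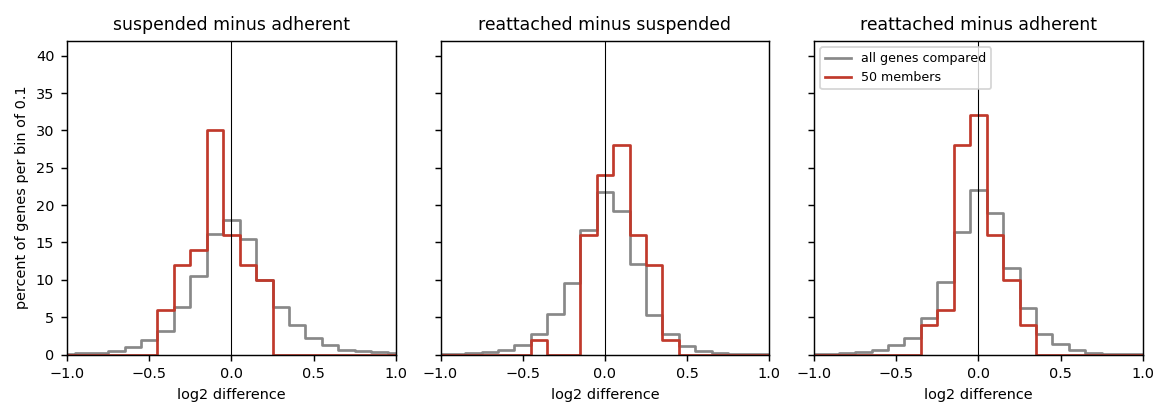
Histograms of log2 differences between single arrays (x axis, bins of 0.1, with the few genes beyond 1 either way not drawn) as percent of genes (y axis) for the 50 G2 and mitosis genes (red) and for all genes compared (grey), in the 3 comparisons. The red curve lies mostly left of 0 for suspended minus adherent (median -0.09), right of 0 for reattached minus suspended (0.09) and about 0 for reattached minus adherent (0.01).

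From suspended to reattached cells the shift ran the other way. Of 50 genes, 36 (72.0%) were higher in reattached cells and 14 (28.0%) were below 0, against 47.8% below 0 among the 10715 genes compared, with a median of 0.09 against 0.01. BUB1, a checkpoint kinase, was highest at 0.36, followed by FOXM1, the forkhead factor that activates many of these genes, at 0.33. At 1.2-fold, 7 genes (14.0%) were higher, namely CKS1B, PLK1, AURKB, BUB1, CENPA, MKI67 and FOXM1, against 9.27% of all genes, and 1 (2.0%), NUF2, was lower, against 9.72%. None reached 2-fold, against 0.317%. Among genes of the same level range these shares were 47.9% below 0, 7.76% higher, 8.52% lower and 0.358% at 2-fold. With the authors' normalized values in place of the scanner values, 4 genes in place of 7 were higher at 1.2-fold, while the share of all genes also went down, to 5.06%. The comparison shares the suspended array with the previous one, so a deviation of that single array alone would appear in both with opposite sign.

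Reattached and adherent cells had much the same levels. Of 50 genes, 24 (48.0%) were below 0, against 46.6% of 10821 genes, and the median was 0.01, against 0.02. At 1.2-fold, NUF2 and NDC80 (2 genes, 4.0%) were lower, against 8.9%, and 1 gene (2.0%), BUB1, was higher, against 10.4%. None reached 2-fold, against 0.139%. In the members' level range the shares over all genes were 47.5% below 0, 7.68% lower, 8.69% higher and 0.0954% at 2-fold. The SD over the 50 genes was 0.133, against 0.222 over all genes.

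By order of the 3 arrays, 29 of the 50 genes (58.0%) were lowest on the suspended array, against 36.6% of the 9984 genes detected on all 3. The adherent array was lowest for 13 (26.0%, against 37.2%) and the reattached array for 8 (16%, against 26.2%). The suspended array was highest for 8 genes (16%, against 34.4%), the adherent for 22 (44.0%, against 34.6%) and the reattached for 20 (40.0%, against 31.0%). These orders are of single values that often lie close together.

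**Figure D3:**
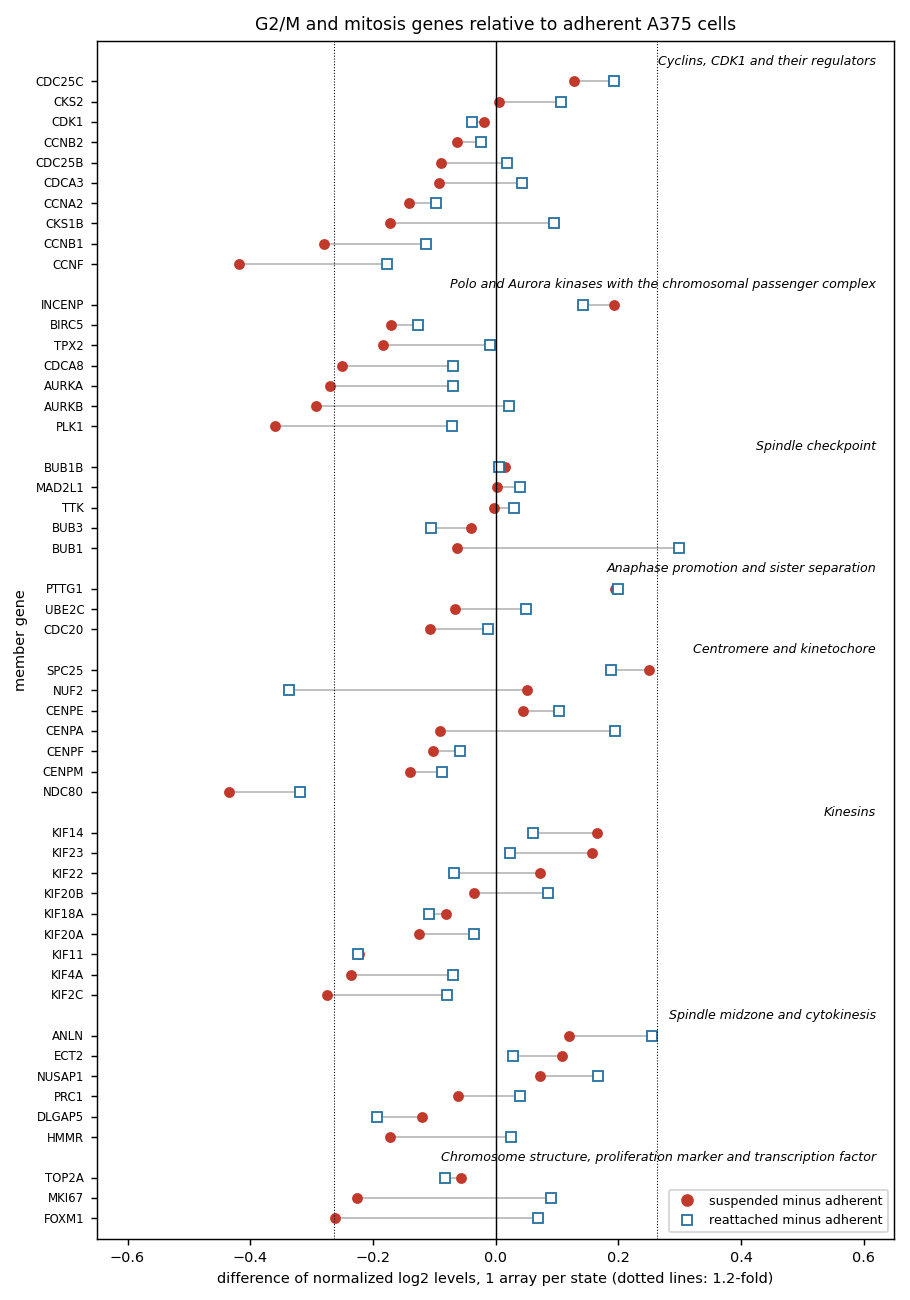
Log2 difference from adherent cells (x axis) of each of the 50 genes (y axis, grouped by role and sorted within each role), as filled circles for suspended and open squares for reattached cells, 1 array a state, with dotted lines at 1.2-fold. Of the 50 circles 35 lie left of 0, and 24 of the squares do.

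Over all genes compared, 49.9% were below 0 for suspended minus adherent and 47.8% for reattached minus suspended. The counts of each role group, all of few genes, are to be set beside these shares. Among the 10 cyclins, CDK1 and their regulators, 8 (80.0%) were lower in suspended than in adherent cells, with a median of -0.09. In reattached relative to suspended cells 9 were higher, with a median of 0.10. CCNF had log2 levels of 10.35 in adherent, 9.93 in suspended and 10.17 in reattached cells. Its suspended value was the lowest of the 3, by 0.42 on the log2 scale from adherent cells, and the reattached value lay between the others. CCNB1, the main mitotic cyclin, stood at 10.27, 9.99 and 10.15 in the same order, lowest in suspended cells and 1.21-fold below adherent cells. Its partner kinase CDK1 had 10.99, 10.97 and 10.95, close on all arrays. Among the A- and B-type cyclins CCNA2 was at -0.14 and CCNB2 at -0.06 in suspended cells relative to adherent ones. CKS1B, a small subunit of cyclin-dependent kinases, had levels of 11.75, 11.57 and 11.84, and the reattached array, the highest, stood 0.27 above the suspended one. For its homologue CKS2 the difference between suspended and adherent cells was 0.01. Of the phosphatases that activate CDK1, CDC25B was at -0.09 and CDC25C at 0.13. CDCA3, a trigger of mitotic entry, was at -0.09.

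The 7 genes of Polo and Aurora kinases and the chromosomal passenger complex had the lowest median of the role groups in suspended cells, -0.25. Of the 7, 6 (85.7%) were below 0, against 49.9% of all genes. PLK1 had log2 levels of 9.11 in adherent, 8.75 in suspended and 9.04 in reattached cells. It was 1.28-fold lower in suspended than in adherent cells and after reattachment 1.22-fold above its suspended level, so that the adherent and reattached arrays differed by -0.07. AURKB had 9.90, 9.60 and 9.92, lowest in suspended cells, with the other states within 0.02. AURKA, the Aurora kinase of centrosomes and spindle poles, had 11.08, 10.81 and 11.01, and its suspended value was again the lowest. TPX2, which activates AURKA on spindle microtubules, was at -0.18 relative to adherent cells and came within -0.01 of them after reattachment. Of the subunits of the passenger complex, CDCA8 (borealin) was at -0.25 and BIRC5 (survivin) at -0.17. INCENP, their scaffold, ran against the group, with 8.43, 8.62 and 8.57. From suspended to reattached cells 6 of the 7 were higher, with a median of 0.18.

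The 5 spindle checkpoint genes hardly differed between suspended and adherent cells, with a range of -0.06 to 0.02. MAD2L1, TTK and BUB1B were at 0.00, -0.00 and 0.02, and BUB3 at -0.04. BUB1 had 9.48 in adherent, 9.42 in suspended and 9.78 in reattached cells, so its reattached value stood above both others, by 0.36 and 0.30. The same held for no other checkpoint gene at 1.2-fold.

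The 3 genes of anaphase promotion were split. CDC20, the activator of the anaphase-promoting complex, was at -0.11 and UBE2C, its ubiquitin-conjugating enzyme, at -0.07 in suspended relative to adherent cells. PTTG1, securin, the inhibitor of separase, had 12.18, 12.38 and 12.38 on the probe used, lowest in adherent cells, by 0.19 against suspended and 0.20 against reattached cells. On its second bright probe it had 10.76, 10.71 and 10.84, lowest in suspended cells, so its order differed between probes.

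Of the 7 centromere and kinetochore genes 4 (57.1%) were below 0, near the 49.9% of all genes. They varied most among themselves, and the range ran from -0.43 for NDC80 to 0.25 for SPC25. These belong to the same complex, which joins the kinetochore to microtubules, together with NUF2 and SPC24. NDC80 had 9.02 in adherent, 8.59 in suspended and 8.70 in reattached cells, so both later states were below adherent ones. SPC25 had 7.37, 7.62 and 7.56, in the opposite order, and NUF2 had 10.20, 10.25 and 9.86, low on the reattached array alone. SPC24, which was not among the 50, had 9.49, 9.51 and 9.69. On the probes used the subunits of this complex thus ran in different directions. Dimmer second probes of SPC25 and NUF2, given below, opposed those values. CENPA, the histone variant of centromeres, had 9.35, 9.26 and 9.54, highest in reattached cells, by 0.29 from suspended ones. CENPE at 0.04, CENPF at -0.10 and CENPM at -0.14 differed less between suspended and adherent cells.

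Of the 9 kinesins, motor proteins of spindle and chromosomes, 6 (66.7%) were lower in suspended cells, against 49.9% of all genes. Their median was -0.08. KIF2C, which takes apart microtubule ends at centromeres, had 9.18, 8.91 and 9.10, lowest in suspended cells. KIF4A, a chromosome motor, had 8.58, 8.35 and 8.51, in the same order. KIF11, which pushes spindle poles apart, had 11.22, 11.00 and 10.99 on the probe used, with suspended and reattached arrays alike and below the adherent one. Its second bright probe gave 10.25, 9.98 and 10.28, also low in suspended cells but back at the adherent level after reattachment, so the reattached value depends on the probe. Values above 0 were those of KIF14 (0.16), KIF23 (0.16) and KIF22 (0.07), and KIF18A, KIF20A and KIF20B lay between -0.12 and -0.04. From suspended to reattached cells 4 of 9 were higher and 5 (55.6%) below 0, against 47.8% of all genes. The median was -0.00.

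The 6 genes of spindle midzone, spindle assembly and cytokinesis had a median of 0.01 between suspended and adherent cells, 3 of them below 0. HMMR, a spindle protein and hyaluronan receptor, was the lowest with 11.06, 10.88 and 11.08, and adherent and reattached cells were within 0.02. DLGAP5, which stabilises kinetochore fibres, had 10.20, 10.08 and 10.00 on the probe used, lowest in reattached cells. Its other probe, of like brightness, gave 10.10, 9.92 and 10.06, lowest in suspended cells, so both put suspended below adherent cells and they differed on the reattached array. PRC1, which bundles midzone microtubules, was at -0.06. NUSAP1, ANLN, the anillin of the contractile ring, and ECT2, the exchange factor that activates RhoA there, were at 0.07, 0.12 and 0.11. The second bright probe of NUSAP1 ran the other way, at -0.09, and at -0.10 for reattached minus adherent where the probe used gave 0.17. ANLN had 10.48, 10.60 and 10.73, and its reattached value was 0.25 above adherent cells, just under 1.2-fold.

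The last 3 genes were all lower in suspended than in adherent cells. FOXM1 had 9.63 in adherent, 9.37 in suspended and 9.70 in reattached cells, lowest in suspension and 0.07 above adherent cells after reattachment. MKI67, a proliferation antigen that coats mitotic chromosomes, had 6.27, 6.04 and 6.36, in the same order. Its probe was the dimmest of the 50, with signals of 109.2, 106.4 and 111.3, so its values rest on a small margin over background. TOP2A, the topoisomerase that untangles sister chromatids, had 11.82, 11.77 and 11.74.

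**Figure D4:**
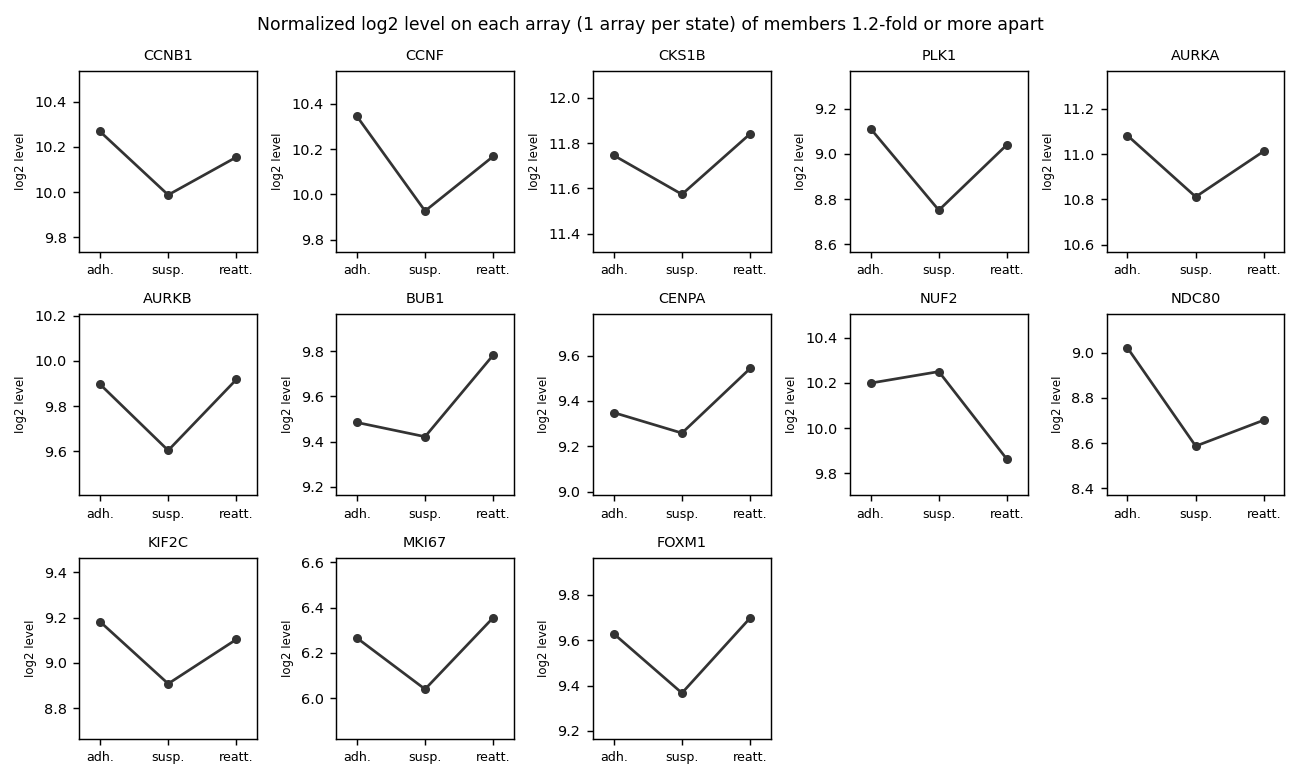
Normalized log2 level (y axis, each panel spanning the same number of log2 units) on the adherent, suspended and reattached array (x axis, 1 point an array) of the 13 genes that were 1.2-fold or more apart in any of the 3 comparisons. In all but NUF2 the suspended point is the lowest of the 3.

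Where a gene had more than 1 detected probe, the probes gave a measure of how far a single value can be trusted. For the 21 such genes, all detected probes had the same sign in 12 for suspended minus adherent and in 11 for each of the other comparisons, and the median range over probes of a gene was 0.15, 0.12 and 0.13 on the log2 scale. These ranges are as large as or larger than the group medians of -0.09 and 0.09. Of the 7 genes at 1.2-fold lower in suspended cells only AURKA had a second detected probe, with -0.27 on both. FOXM1, just outside, had -0.33 on its second probe, and CKS1B -0.26 beside -0.17. In CKS2 the probe used gave 0.01 and the other -0.32, and in CDC25C the probe used gave 0.13 and the others -0.24 and -0.23. Among 3 further genes there were dim second probes on the high side, BIRC5 at 0.44 with an adherent signal of 88.0, KIF23 at 0.70 with 100.1 and NUF2, whose dimmest probe was under the detection limit in adherent cells and so has a bound, at least 0.49 higher in suspended ones. In SPC25 the second probe, at -0.17, opposed the 0.25 of the probe used, but it too was dim, with an adherent signal of 87.2. The low NUF2 value of reattached cells was seen with the brightest of its 3 probes. The second, with an adherent signal of 212, was at 0.24 relative to adherent cells, and the dimmest, again as a bound, was higher by at least 0.37. Signs also differed between probes in CDK1, CENPM, NUSAP1, PTTG1 and UBE2C for suspended minus adherent. Of the 8 genes past 1.2-fold between suspended and reattached cells, 4 had a second detected probe, and in 3 of these all signs were the same, among them FOXM1 with 0.32 and CENPA with 0.21.

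**Figure D5:**
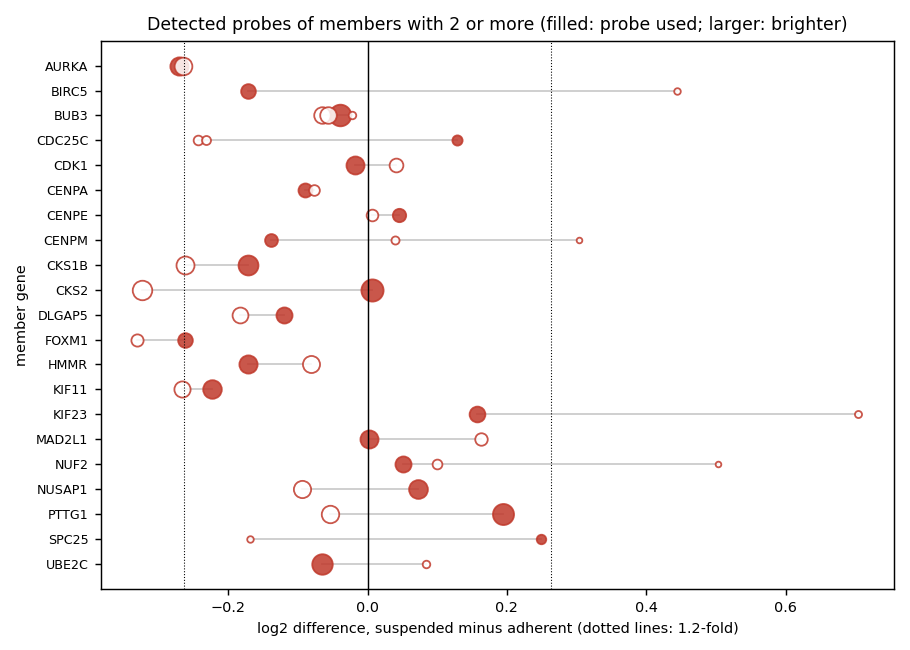
Log2 difference, suspended minus adherent (x axis), of every probe detected on at least 1 array for the 21 genes (y axis) with more than 1 such probe. Filled circles are the probe used for the gene, open circles the others, and a larger circle is a brighter probe. The dimmest NUF2 probe, under the detection limit in adherent cells, is drawn at its measured value. The probes of AURKA lie together at -0.27, whereas those of BIRC5 span 0.61.

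Counted by probe, 11 of the 76 detected probes (14.5%) were 1.2-fold or more lower in suspended than adherent cells and 4 (5.26%) higher, against 13.2% and 15.1% of the 14728 probes of 1 gene detected on at least 1 array. Relative to suspension, 13 (17.1%) were higher and 2 (2.63%) lower after reattachment, against 9.59% and 9.74%. The share of lower probes in suspended cells was thus near that of all probes, as by gene. The upper tail that was empty by gene therefore held dim second probes of BIRC5, CENPM, KIF23 and NUF2.

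The wider mitotic pathway was read from 7 further lists of 143 genes that are not among the 50, of which 131 entered the comparison of suspended with adherent cells. Their median was -0.03 and 80 (61.1%) were below 0, against 49.9% of all genes, so the sign ran the same way as in the 50 with a smaller size. At 1.2-fold, 13 (9.92%) were lower and 4 (3.05%) higher, both under the 13.0% and 14.8% of all genes. From suspended to reattached cells 133 were compared, with a median of 0.06 and 42 (31.6%) below 0, against 47.8%. At 1.2-fold, 15 (11.3%) were higher and 4 (3.01%) lower, against 9.27% and 9.72%. Between reattached and adherent cells the median was 0.03, with 54 of 133 (40.6%) below 0, 8 (6.02%) lower and 7 (5.26%) higher, against 46.6%, 8.9% and 10.4%.

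Of the transcription factors and MuvB subunits upstream of these genes, 20 were compared, with a median of -0.07. In suspended cells 13 (65.0%) were lower than in adherent ones, against 49.9% of all genes. MYBL2, the B-MYB that joins MuvB in S phase, was at -0.27, RBBP4 at -0.35, and the MuvB subunit LIN52 at 0.41. The levels of MYBL2 were near the detection limit, and it was not detected in reattached cells. Those of LIN52, 5.56, 5.97 and 5.59, were also near that limit. TFDP2, a partner of E2F proteins, was at 0.50. E2F1 was at -0.53 from suspended to reattached cells. Among 18 further kinases, cyclins and phosphatases of mitotic entry and exit, 15 (83.3%) were below 0, against 49.9% of all genes. Their median was -0.08. CCNA1, an A-type cyclin known from the germ line, had 6.26 in adherent, 5.20 in suspended and 5.75 in reattached cells. It was the one gene of the 131 past 2-fold, at -1.05. Its suspended value lay next to the lowest detected level of that array, 5.18, so this size rests on a value at the detection limit. NEK6, a mitotic kinase, was at -0.47. The kinases that hold CDK1 inactive before mitosis, WEE1 and PKMYT1, were at -0.03 and -0.09.

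Medians of the lists of the anaphase-promoting complex, cohesin, condensin and other kinetochore genes were nearer to 0. The counts below 0 that follow stand beside 49.9% of all genes. Of 13 compared subunits and regulators of the anaphase-promoting complex 7 were below 0, with a median of -0.01 and extremes of -0.34 for ANAPC15 and 0.16 for ANAPC16. Of 14 cohesin genes 9 were below 0, with a median of -0.04, RAD21 at -0.28 and STAG2 at 0.28. The 7 condensin genes had a median of 0.01, with 3 below 0 and SMC4 at 0.19. Other kinetochore genes, 31 in number, had a median of 0.02, with 13 below 0, and PMF1 was the lowest at -0.64, followed by SKA3 at -0.38. Other spindle and cytokinesis genes, 28 in number, had a median of -0.06, with KNSTRN at -0.31 and CKAP2 at -0.29. Of them 20 (71.4%) were below 0, a share like the 70.0% of the 50 genes.

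For comparison with an earlier phase, 42 genes of G1/S and DNA replication had a median of -0.00 between suspended and adherent cells, with 21 below 0. At 1.2-fold 5 (11.9%) were lower and 4 (9.52%) higher, against 13.0% and 14.8% of all genes. RFC3, a subunit of the clamp loader, was at 0.61, and GINS2 and CDT1, which act at replication origins, were at -0.48 and -0.47. From suspended to reattached cells 33 of 42 were above 0 and 9 (21.4%) below 0, against 47.8% of all genes. Their median of 0.10 was no smaller than the 0.09 of the 50 mitotic genes, so the higher values after reattachment were not shown to be particular to mitosis. Between reattached and adherent cells 30 of 42 were above 0 and 12 (28.6%) below 0, against 46.6% of all genes, with a median of 0.08. At 1.2-fold 7 (16.7%) were higher and 2 (4.76%) lower, against 10.4% and 8.9%. Of 9 compared genes of cell cycle arrest and cyclin D, 7 (77.8%) were lower in suspended than in adherent cells, against 49.9% of all genes, with a median of -0.09. CDKN1C was at -0.53, CCND1 at -0.31, CDKN1A at -0.09 and CDKN1B at 0.24. The levels of CDKN1C were low, at 6.15, 5.63 and 5.80. CDKN1B, an inhibitor of cyclin-dependent kinases, was then at -0.35 from suspended to reattached cells.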

How the data were processed

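Total RNA of A375 cells in 3 states was measured with 1 array each. Per the labels' protocols, Trizol served for extraction and an Ambion kit for biotin-labelled cRNA. Per the file headers, the deposited scanner table gives a linear signal intensity and a detection p-value per probe and array, without normalization between arrays. Steps of the detection p-value are 1 in 770. In the authors' second table, intensity values have nearly equal distributions (medians 58.09 to 58.11), on a linear scale with background left in. Its making is not described in the labels or headers, so it served as an alternative only.

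Background correction, offset of 16, quantile normalization and log2 were done with neqc of limma 3.58.1 (R 4.3.3), with negative controls inferred from the detection p-values. The offset draws differences of dim probes toward 0. Later steps used Python 3.11.15, numpy 2.4.6, pandas 2.3.3 and matplotlib 3.10.9. Of 47323 probes, 30113 had 1 gene symbol in the platform annotation, 8 had several and were left out, and 17202 are unnamed here. A check of 30074 probes by Entrez identifier against RefSeq genes of GRCh38.p14 changed 0 symbols. A gene was represented by its detected probe (detection p-value under 0.01) with the highest mean log2 level, and entered a comparison if detected on at least 1 of its arrays. A value not detected was raised to the lowest detected level on that array, which affected none of the 50 genes.

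No test was made with 1 array a state. The members, role groups, further lists, marker lists and thresholds were chosen with earlier results of these data known. Genes named by rule were members 1.2-fold or more apart in any comparison, the 2 members of each role group with the largest difference between suspended and adherent cells, and those with discordant probes. Other members were named to account for all 50, and SPC24 and some genes of the further lists were named after their values were seen. Counts and medians were set beside those of all genes compared. The counting of differences was tested on simulated data with planted changes of 1.5- and 2-fold, larger than any of the 50 genes showed. That test does not bear on calls near 1.2-fold. Alternatives were median scaling (over probes detected on all 3 arrays), cyclic loess, background left in, an offset of 50, the authors' normalized values, detection filters and other choices of probe. The precision is limited by the number of arrays and by signal over background.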

Additional observations from a re-analysis of the deposited data

How the results depend on the processing

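No paired analysis was possible because each state had 1 array, and for the same reason no replicate could be left out. The median of the 50 genes stayed between -0.09 and -0.07 for suspended minus adherent, between 0.07 and 0.10 for reattached minus suspended and between 0.01 and 0.03 for reattached minus adherent under all alternatives run. The median of all genes lay between -0.01 and 0.02. Of 120 medians and counts under alternatives, 109 stayed within 0.05 on the log2 scale or within 1.5 times, and 11 did not. The 109 include the values under the detection filters, which could not move and so are no check. All 50 genes were detected on each array, so these filters left the same genes and probes. No median changed sign, and a count has no sign to change. With the mean over a gene's detected probes, 1 gene was 1.2-fold higher in suspended than adherent cells, 0 were lower from suspended to reattached cells, and reattached against adherent cells gave 1 lower and 2 higher. With the authors' normalized values, 4 were higher from suspended to reattached cells. When each of the 76 detected probes was counted, chosen after seeing the data, 11 were lower and 4 higher in suspended than adherent cells. By the same count 22 were below 0, 2 lower and 13 higher from suspended to reattached cells, and 4 higher between reattached and adherent cells. That last count has more items than the 50 genes by construction, and the cause of the other moves was not tested. Of 195 values of named genes 189 stayed within 0.05 and 6, all of MKI67, moved: to -0.15 for suspended minus adherent, and to 0.21 or 0.22 for reattached minus suspended, with background left in, the larger offset or the authors' values. No limit on differences between cultures can be drawn from single arrays, and differences of dim probes such as those of MKI67 are compressed by the offset.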
